A study of Homo sapiens with 4 samples.

Results

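ATP-dependent chromatin remodellers are described here in K562, a human cell line from chronic myelogenous leukemia, after knockdown of PHF8, a demethylase of histone lysines. The 56 genes, of 11213 gene names in the table, were chosen by name: symbols that start with SMARC, ARID, INO80, MBD, BAZ, MTA with its number or CHD with a digit, together with HELLS, ATRX, DAXX, SRCAP, RUVBL1, RUVBL2, ACTL6A, GATAD2A, GATAD2B and BPTF. RNA was sequenced from 2 libraries of cells transduced with a lentiviral hairpin against PHF8 (shPHF8, labelled as PHF8 knockdown) and from 2 libraries of cells transduced with a control hairpin (shControl, labelled as WT). All cells carried a lentiviral hairpin, met polybrene and were selected with puromycin. Whether the numbers 1 and 2 of the shPHF8 libraries stand for replicates or for different hairpins is unclear from the labels. Separate cultures are not stated either, and p-values therefore measure only the spread between these libraries. The labels do not say whether the cells were a pool or a clone. The study set out to learn how PHF8 acts in this leukemia, and the comparison here asks how far the transcripts of the remodelling machinery differed between shPHF8 and shControl cells.

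Remodellers use ATP hydrolysis to slide, evict or exchange nucleosomes, and they fall into families named after their motor subunits. SWI/SNF complexes open chromatin at enhancers and promoters and are often mutated in cancer, ISWI complexes space nucleosomes, the NuRD complex joins a CHD motor to histone deacetylases, and the INO80 and SRCAP complexes handle the histone variant H2A.Z. In erythroid cells SWI/SNF and NuRD are both known to act at the globin genes with the factors that K562 cells express. The symbols also take in proteins that belong to no remodelling complex, such as several ARID proteins, which share a DNA-binding domain, and several MBD proteins, which are related to readers of methylated DNA.

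Values are in TPM, a measure of transcript abundance relative to all transcripts of a library, which is scaled for transcript length and can be compared between genes. TPM were summed over the transcripts of a gene. Log2 fold changes are differences of mean log2(TPM + 1), shPHF8 minus shControl, given with the standard error (SE). The number of reads behind a value is unknown. PHF8 itself was at 6.06 and 6.42 TPM in the shPHF8 libraries, against 25.9 and 22.5 TPM in the shControl libraries, or 25.8% of the shControl level. The labelled cell type was checked with markers: all 8 erythroid markers were found and 6 of them were higher at an unadjusted limma p under 0.05, with a sum of 13647 and 13024 TPM in shPHF8 and 8591 and 9130 TPM in shControl libraries. Most of that sum came from the globins, and GATA1, the erythroid master factor, was lower without overlap, at 311 and 307 TPM in shPHF8 against 339 and 343 TPM in shControl libraries. Of 12 granulocyte and monocyte markers 6 were measured and all 6 were lower at that p, with a sum of 84.9 and 81.4 TPM in shPHF8 and 152 and 173 TPM in shControl libraries, and S100A9 was listed at 0 in shPHF8 replicate 2. Lymphocyte markers (2 of 6 measured) summed to 15.6 and 11.0 TPM in shPHF8 and 30.4 and 34.4 TPM in shControl libraries, and stromal and endothelial markers (2 of 5) to 3.42 and 2.52 against 9.88 and 13.01 TPM. The 5 markers of dividing cells summed to 1257 and 1222 TPM in shPHF8 and 1139 and 1050 TPM in shControl libraries, with 1 of them, TOP2A, higher at that p. Most of these markers differed between the groups without overlap of libraries, while COL1A1, MKI67, PCNA and MCM2 overlapped. The part of the markers in the results below was not tested. In bulk RNA, fewer cells of a type and less RNA per cell cannot be told apart.

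Most remodeller genes were present at middle to high levels in all 4 libraries. Of the 56, 9 had a mean of at least 100 TPM, 43 of 10 to 100 TPM and 4 of under 10 TPM. Their median was 51.2 TPM, against 28.3 TPM over all genes. The order began with CHD4 at 254 TPM, SMARCC1 at 233 TPM, BAZ1B at 210.5 TPM and MTA2 at 206 TPM, averaged over the 4 libraries, and CHD4 and SMARCC1 overlapped in their libraries. At the low end were INO80D at 7.26 TPM, SMARCD3 at 3.61 TPM, ARID5A at 1.37 TPM and SMARCA1, an ISWI motor, which was listed at 0 in 3 libraries and at 0.0892 TPM in shControl replicate 1. All remodeller transcripts together summed to 3856 and 3886 TPM in shPHF8 and 3776 and 3631 TPM in shControl libraries, so the sums did not overlap and the shPHF8 mean was 104.5% of the shControl mean.

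**Figure D1:**
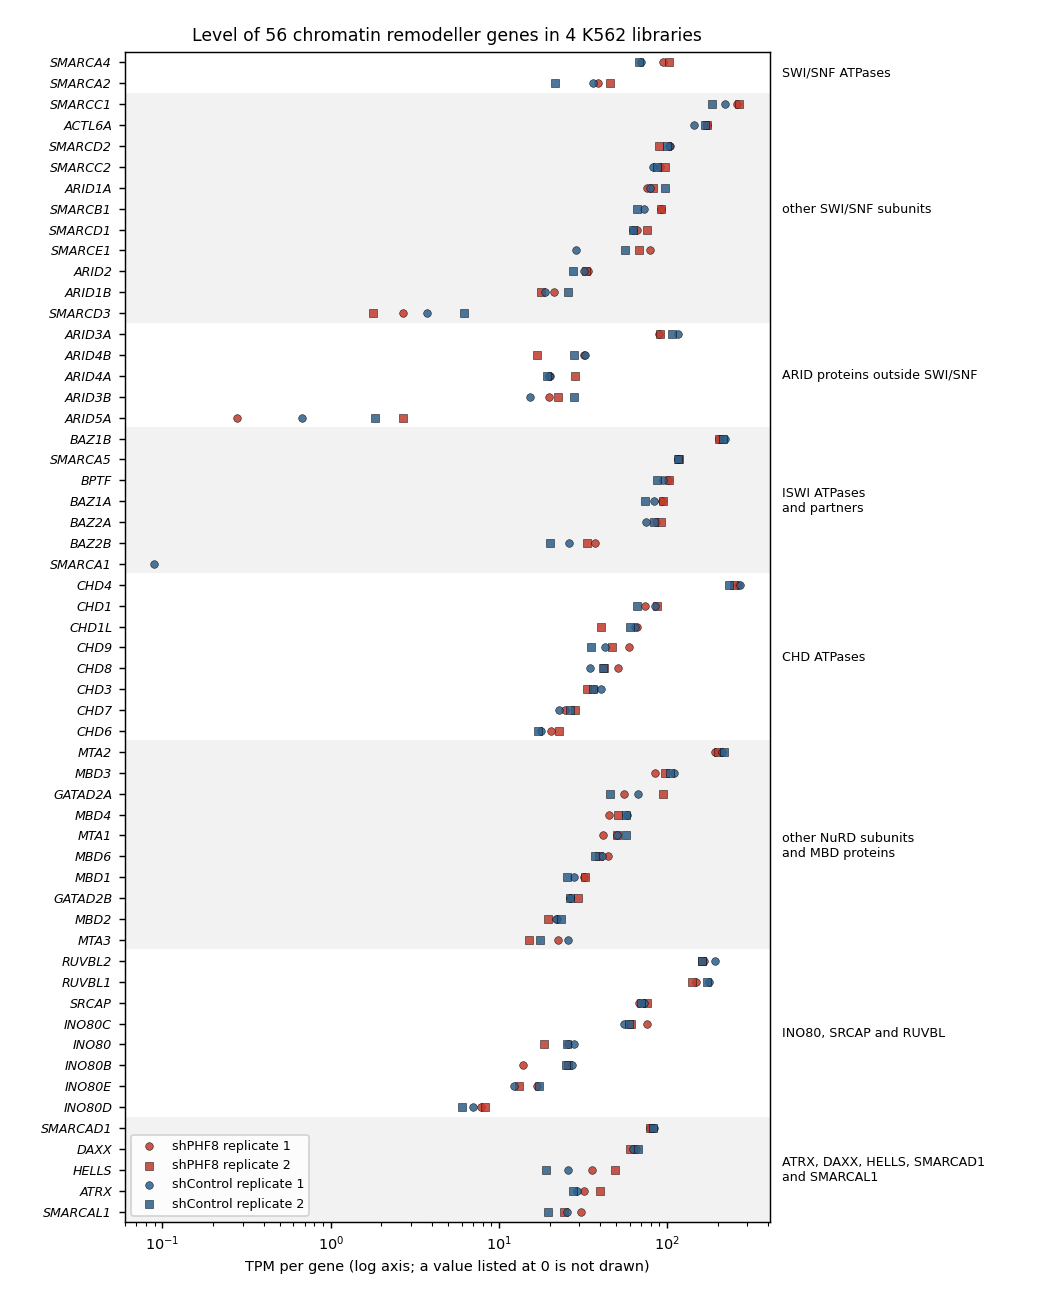
TPM of each of the 56 genes (x axis, log scale) in each library, with genes grouped by role and ordered by mean level within a role. Red symbols are shPHF8 and blue symbols are shControl libraries. Most genes have all 4 symbols close together, and 23 genes, SMARCA4, SMARCB1, SMARCC1, HELLS and BAZ2B among them, have both red symbols to the right of both blue ones. In 8 genes both lie to the left. Over all genes tested the shares were 26.0% and 29.3%.

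The SWI/SNF motor SMARCA4 and the core subunits SMARCB1 and SMARCC1 were higher in shPHF8 libraries, by 1.30 to 1.42 times on the fitted scale. Among the 13 SWI/SNF genes that the naming rule takes in, only these 3 had an unadjusted limma p under 0.05. This is 23.1%, close to the 22.0% of all genes tested. HELLS and BAZ2B were also higher, and RUVBL1 and ARID3A were lower. None of these differences passed adjustment over all genes. The 55 genes that averaged 1 TPM or more were tested with all others by limma, which called 0 of 10972 genes (0%) at a Benjamini-Hochberg adjusted p under 0.05. The smallest adjusted p among the remodellers was 0.0993 (limma, Benjamini-Hochberg), that of SMARCA4. PHF8, the targeted gene, did not pass either, with a log2 fold change of -1.80 ± 0.16 (SE; limma, Benjamini-Hochberg adjusted p = 0.0643). At an unadjusted limma p under 0.05, 5 remodeller genes were higher, where the share over all genes tested was 9.90%, and 2 were lower, where that share was 12.1%. In both directions together these were 7 of 55 genes or 12.7%, against 22.0% of all genes. Both shPHF8 libraries lay above both shControl libraries in 23 genes (26.0% over all genes) and below them in 8 (29.3% over all genes). Together 31 of 55 genes or 56.4% did not overlap, close to the 55.3% of all genes.

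Most of the differences in the remodeller genes were small. Their median log2 fold change was 0.08, against -0.02 over all genes, and the fold changes ran from -0.87 to 0.89. An absolute log2 fold change under 0.3 was found for 42 genes or 76.4%, against 57.6% of all genes tested, and one over 0.5 for 6 genes or 10.9%, against 23.1%. None of the 55 exceeded 1. Between single libraries of the same group the median absolute log2 difference of these genes was 0.165 for the shPHF8 pair and 0.147 for the shControl pair, and between a shPHF8 and a shControl library it was 0.177 to 0.242.

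Of the 7 genes at an unadjusted limma p under 0.05, only SMARCA4 kept it in every one of the 12 alternative settings. Without shPHF8 replicate 2 it was the only one of the 7 to keep it, and without shPHF8 replicate 1 it was joined by HELLS and RUVBL1. Without shControl replicate 1 RUVBL1 and ARID3A lost it, and without shControl replicate 2 HELLS and BAZ2B did. The number of higher genes was 2 without either shPHF8 library, 7 without shControl replicate 1 and 5 without shControl replicate 2. All 7 kept their direction each time.

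**Figure D2:**
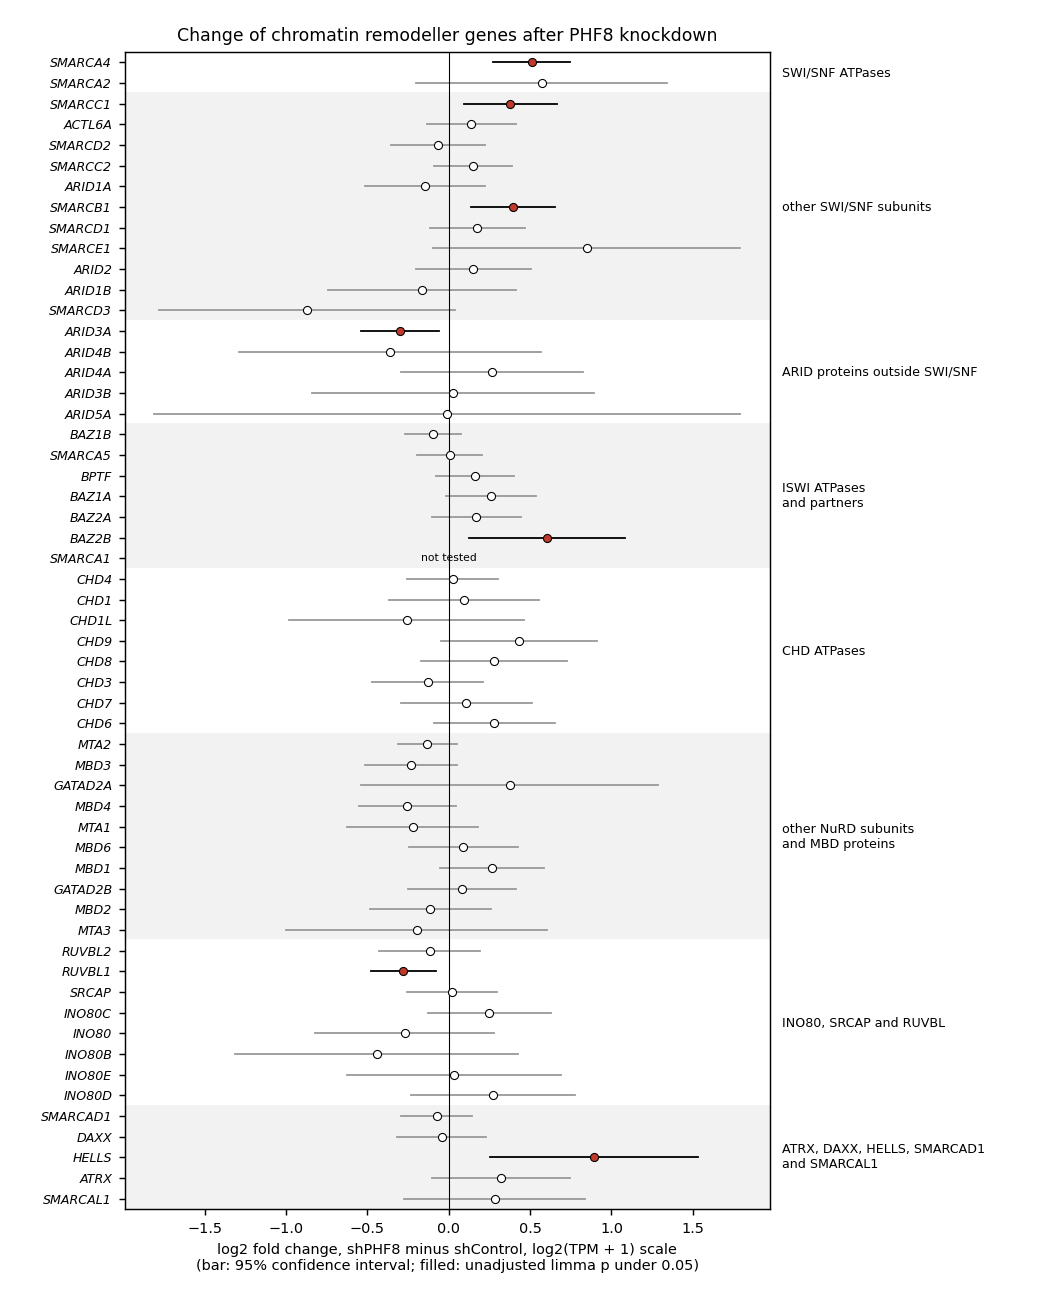
Log2 fold change of each tested gene (x axis; difference of mean log2(TPM + 1), shPHF8 minus shControl), with its 95% confidence interval, grouped by role. Filled points have an unadjusted limma p under 0.05: SMARCA4, SMARCC1, SMARCB1, BAZ2B and HELLS lie to the right of 0, ARID3A and RUVBL1 to the left.

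SMARCA4 and SMARCA2 are the alternative motors of SWI/SNF. SMARCA4 (ENSG00000127616), also called BRG1, was at 94.97 and 102 TPM in shPHF8 libraries, against 69.5 and 68.3 TPM in shControl libraries. The groups were well apart, with 98.5 ± 5.04 and 68.9 ± 0.843 TPM (SD, n = 2). A log2 fold change of 0.51 ± 0.09 (SE) was fitted, with the 95% confidence interval running from 0.27 to 0.75 and a limma Benjamini-Hochberg adjusted p of 0.0993 over all genes. It ranged from 0.46 to 0.56 when 1 library at a time was left out. SMARCA2 (ENSG00000080503), also called BRM, was at 39.0 and 45.7 TPM in shPHF8 libraries, against 36.4 and 21.6 TPM in shControl libraries. Its shControl libraries lay far apart, and the log2 fold change of 0.57 ± 0.28 (SE) had a 95% confidence interval from -0.20 to 1.34 (limma, Benjamini-Hochberg adjusted p = 0.331). The value was 0.21 without shControl replicate 2 and 0.93 without shControl replicate 1. The level of the motors together was 134 and 148 TPM in shPHF8 libraries and 106 and 89.9 TPM in shControl libraries.

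Among the core and accessory subunits of SWI/SNF, SMARCB1 and SMARCC1 stood out. SMARCB1 (ENSG00000099956), the core subunit lost in rhabdoid tumours, was at 91.5 and 91.4 TPM in shPHF8 libraries, against 72.8 and 65.9 TPM in shControl libraries. Its log2 fold change was 0.40 ± 0.09 (SE; limma, Benjamini-Hochberg adjusted p = 0.136), and without shPHF8 replicate 1 or shPHF8 replicate 2 its unadjusted p was above 0.05. SMARCC1 (ENSG00000173473), a scaffold subunit, was at 260 and 266 TPM in shPHF8 libraries, against 220 and 186 TPM in shControl libraries. Its log2 fold change was 0.38 ± 0.10 (SE; limma, Benjamini-Hochberg adjusted p = 0.161), and it ranged from 0.26 to 0.50 when 1 library was left out. In both genes the shPHF8 libraries nearly coincided and the shControl libraries lay lower and further apart. SMARCE1, a subunit with an HMG domain, was at 79.0 and 68.1 TPM in shPHF8 libraries, against 28.8 and 56.2 TPM in shControl libraries. The low value of shControl replicate 1 left it with a log2 fold change of 0.85 ± 0.34 (SE) and a 95% confidence interval from -0.09 to 1.79.

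The other subunits differed less. SMARCC2, the paralogue of SMARCC1, was at 94.1 ± 4.26 TPM in shPHF8 and 84.7 ± 3.002 TPM in shControl libraries, SMARCD1 at 71.3 ± 6.63 and 62.8 ± 0.280 TPM, and the actin-related ACTL6A at 172 ± 0.308 and 157 ± 16.7 TPM (SD, n = 2 each), with no overlap of libraries in any of them and no unadjusted limma p under 0.05. ARID1A and ARID1B, the alternative DNA-binding subunits of the canonical complex, averaged 79.0 and 19.5 TPM in shPHF8 libraries, against 88.0 and 22.1 TPM in shControl libraries, and in both genes the libraries overlapped. ARID2, the DNA-binding subunit of the PBAF form, averaged 33.2 TPM in shPHF8 and 29.9 TPM in shControl libraries. SMARCD3, the rarest subunit, was at 2.68 and 1.79 TPM in shPHF8 libraries, against 3.76 and 6.22 TPM in shControl libraries, which gave a log2 fold change of -0.87 ± 0.33 (SE; limma, Benjamini-Hochberg adjusted p = 0.241). It was -0.57 without shControl replicate 2 and -1.17 without shControl replicate 1. SMARCD2 averaged 96.7 TPM in shPHF8 and 101 TPM in shControl libraries and overlapped. Of the 13 SWI/SNF genes, 9 had both shPHF8 libraries above both shControl libraries and 1, SMARCD3, had both below, where the shares over all genes were 26.0% and 29.3%. No test was made for the SWI/SNF genes as a group. The 11 genes other than the motors summed to 998 and 995 TPM in shPHF8 and to 848 and 882 TPM in shControl libraries.

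**Figure D3:**
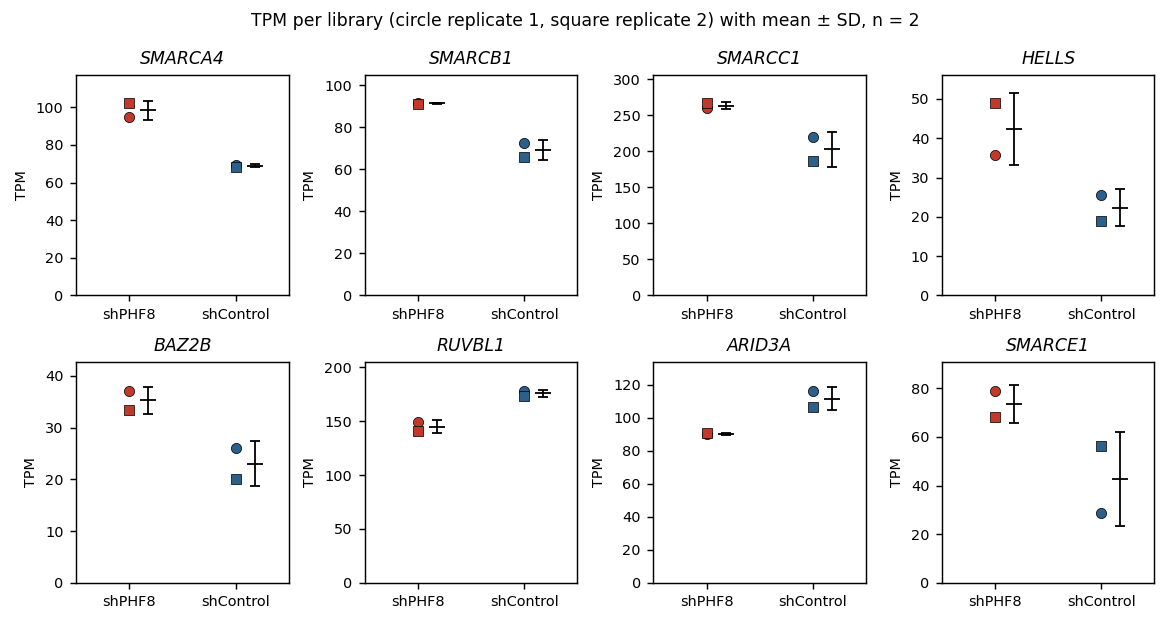
TPM (y axis, from 0) in each library for the 7 genes with an unadjusted limma p under 0.05 and for SMARCE1, with the mean ± SD of 2 libraries beside the points. In the first 5 panels both shPHF8 libraries are higher than both shControl libraries, in RUVBL1 and ARID3A both are lower, and in SMARCE1 the shControl libraries are spread from 28.8 to 56.2 TPM.

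The promoters of SMARCA4, SMARCB1 and HELLS are shown because these genes had the smallest p among the remodellers with higher values. The 250 bases before the start site were taken from RefSeq (GRCh38.p14), using the window nearest to the 5′ end of the gene's most abundant transcript, which lay 205, 35 and 29 bases from the RefSeq start. The intervals are chr19:10960780-10961029, chr22:23786716-23786965 and chr10:94545538-94545787, all on the plus strand. Capitals mark matches, on either strand, to a core motif of ETS factors (CCGGAAG), NRF1 (GCGC and TGCGC with any base between them), E2F (TTTNGCGC), NFY (CCAAT) or GATA factors (AGATAA). No pair of these motifs overlapped in the sequences shown.
SMARCA4: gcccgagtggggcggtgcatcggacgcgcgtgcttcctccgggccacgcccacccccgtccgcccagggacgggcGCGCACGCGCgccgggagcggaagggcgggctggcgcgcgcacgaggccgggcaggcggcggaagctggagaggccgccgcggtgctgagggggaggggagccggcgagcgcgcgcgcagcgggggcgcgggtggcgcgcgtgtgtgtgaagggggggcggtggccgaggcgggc
SMARCB1: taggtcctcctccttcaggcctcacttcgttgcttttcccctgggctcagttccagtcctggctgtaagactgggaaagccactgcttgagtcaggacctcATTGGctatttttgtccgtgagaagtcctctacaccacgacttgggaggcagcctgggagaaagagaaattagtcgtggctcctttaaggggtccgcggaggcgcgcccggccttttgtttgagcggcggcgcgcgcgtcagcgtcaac
HELLS: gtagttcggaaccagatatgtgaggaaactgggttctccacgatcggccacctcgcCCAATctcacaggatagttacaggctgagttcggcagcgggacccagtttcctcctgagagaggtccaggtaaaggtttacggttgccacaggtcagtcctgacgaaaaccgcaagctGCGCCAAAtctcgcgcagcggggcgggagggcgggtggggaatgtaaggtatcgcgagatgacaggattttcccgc
SMARCA4 held 1 NRF1 match and 44 CG dinucleotides at a GC content of 82.4%, SMARCB1 held 1 NFY match and 16 CG dinucleotides at 58.0%, and HELLS held 1 NFY and 1 E2F match and 18 CG dinucleotides at 57.6%. A RefSeq window was found for 44 of the 56 genes. Their median was 24 CG dinucleotides, against 11 over all 35116 windows. Those windows were not limited to genes measured in these cells, so the comparison is not with expressed genes alone. The NRF1 motif was in 15.9% of the 44 windows, against 5.07% of all windows, and the ETS motif also in 15.9%, against 8.52%. The NFY motif was in 36.4% against 32%, the GATA motif in 6.82% against 9.17% and the E2F motif in 2.27% against 1.51%. The NRF1, ETS and E2F motifs contain CG, and the windows of the remodellers were richer in it. A match is a stretch of letters and not a bound site.

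Of the 5 ARID genes outside SWI/SNF, 1 had an unadjusted limma p under 0.05 and was lower. This is 20%, against 22.0% of all genes tested. ARID3A (ENSG00000116017), a DNA-binding factor first described in B cells, was at 89.8 and 90.8 TPM in shPHF8 libraries, against 116 and 106 TPM in shControl libraries. The log2 fold change, -0.30 ± 0.09 (SE), had a 95% confidence interval from -0.54 to -0.06 (limma, Benjamini-Hochberg adjusted p = 0.177), and its unadjusted p was above 0.05 without any 1 library except shControl replicate 2. Its relative ARID3B averaged 21.2 TPM in shPHF8 and 21.7 TPM in shControl libraries. ARID4A and ARID4B are subunits of the SIN3 deacetylase complex. ARID4A was at 20.1 and 28.3 TPM in shPHF8 libraries, against 19.9 and 19.4 TPM in shControl libraries. ARID4B was at 32.03 and 16.8 TPM in shPHF8 libraries, against 32.6 and 27.8 TPM in shControl libraries, so that shPHF8 replicate 2 alone was low. Its log2 fold change of -0.36 ± 0.34 (SE) became 0.09 without that library. ARID5A, an RNA-binding protein, ran from 0.276 to 2.68 TPM in the shPHF8 libraries alone, too wide for any statement.

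Among the 6 ISWI motors and partners tested, BAZ2B alone had an unadjusted limma p under 0.05. This is 16.7%, against 22.0% of all genes tested. SMARCA5 (ENSG00000153147), the ISWI motor of nearly all of these cells' ISWI transcripts, was at 116 and 118 TPM in shPHF8 libraries, against 117 and 116 TPM in shControl libraries. A log2 fold change of 0.01 ± 0.07 (SE) was fitted, with the 95% confidence interval running from -0.19 to 0.21. BAZ2B (ENSG00000123636), a bromodomain protein that pairs with ISWI motors, was at 37.1 and 33.4 TPM in shPHF8 libraries, against 26.1 and 20.01 TPM in shControl libraries. The log2 fold change, 0.60 ± 0.17 (SE), had a 95% confidence interval from 0.13 to 1.08 (limma, Benjamini-Hochberg adjusted p = 0.173), and it ran from 0.42 without shControl replicate 2 to 0.79 without shControl replicate 1. Of the 4 ways to leave out a library, its unadjusted p stayed under 0.05 without shControl replicate 1 only. BAZ1A, the ACF partner of SMARCA5, was at 92.6 and 94.95 TPM in shPHF8 libraries, against 83.1 and 73.4 TPM in shControl libraries (log2 fold change 0.26 ± 0.10, SE; limma, Benjamini-Hochberg adjusted p = 0.244). BPTF, the large subunit of the NURF complex, averaged 101 TPM in shPHF8 and 90.6 TPM in shControl libraries, and BAZ2A, which silences ribosomal RNA genes in the NoRC complex, 89.0 and 79.0 TPM. BAZ1B, which is deleted in Williams syndrome, averaged 203 TPM in shPHF8 and 218 TPM in shControl libraries. In these 3 genes the groups did not overlap, yet each confidence interval of the fold change held 0.

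None of the 8 CHD motors had an unadjusted limma p under 0.05, where the share over all genes tested was 22.0%. CHD4 (ENSG00000111642), the main NuRD motor and the most abundant remodeller, was at 262 and 249 TPM in shPHF8 libraries, against 272 and 232 TPM in shControl libraries, and the groups overlapped. A log2 fold change of 0.02 ± 0.10 (SE) was fitted, with the 95% confidence interval running from -0.25 to 0.30, and it took either sign depending on the library left out, with -0.01 without shPHF8 replicate 1 and -0.09 without shControl replicate 2. CHD3, the alternative NuRD motor, averaged 35.1 TPM in shPHF8 and 38.5 TPM in shControl libraries. CHD9 (ENSG00000177200) showed the largest difference of the family, with 59.6 and 47.2 TPM in shPHF8 libraries, against 42.9 and 35.5 TPM in shControl libraries. Its log2 fold change was 0.43 ± 0.18 (SE; limma, Benjamini-Hochberg adjusted p = 0.259). It was 0.27 without shPHF8 replicate 1 and 0.30 without shControl replicate 2, against 0.60 without shPHF8 replicate 2, so the size rests on single libraries. CHD6 averaged 21.5 TPM in shPHF8 and 17.5 TPM in shControl libraries, and CHD8, a regulator of neurodevelopment, 46.5 and 38.2 TPM, both without overlap. CHD7, mutated in CHARGE syndrome, averaged 26.5 TPM in shPHF8 and 24.5 TPM in shControl libraries, CHD1, which binds methylated histone tails at active genes, 80.4 and 75.5 TPM, and these overlapped. CHD1L, a motor switched on by poly(ADP-ribose), was at 66.5 and 40.2 TPM in shPHF8 libraries, against 64.2 and 60.05 TPM in shControl libraries, with shPHF8 replicate 2 alone low.

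The other NuRD subunits and MBD proteins gave 0 of 10 genes at an unadjusted limma p under 0.05, against 22.0% of all genes tested. Their median log2 fold change was -0.12. Libraries did not overlap in 5 of the 10 genes or 50%, close to the 55.3% of all genes. MTA2 (ENSG00000149480), the most abundant of the MTA scaffolds that hold the deacetylases, was at 193 and 200 TPM in shPHF8 libraries, against 213 and 219 TPM in shControl libraries. The libraries did not overlap, and the log2 fold change was -0.13 ± 0.07 (SE; limma, Benjamini-Hochberg adjusted p = 0.333). MTA1 averaged 46.0 TPM in shPHF8 and 53.5 TPM in shControl libraries and MTA3 18.8 and 21.7 TPM, both with overlap. MBD3, which links the deacetylase core to the motor, was at 84.9 and 96.9 TPM in shPHF8 libraries, against 110 and 104 TPM in shControl libraries, without overlap. MBD2, its methyl-DNA-binding alternative, averaged 20.9 TPM in shPHF8 and 22.6 TPM in shControl libraries and overlapped. MBD4, a DNA glycosylase, averaged 48.0 TPM in shPHF8 and 57.4 TPM in shControl libraries without overlap (log2 fold change -0.26 ± 0.11, SE). MBD1, a reader of methylated DNA, averaged 32.3 TPM in shPHF8 and 26.8 TPM in shControl libraries without overlap, and MBD6 41.8 and 39.2 TPM with overlap.

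The GATAD2 proteins bridge MBD2 or MBD3 to the NuRD motor. GATAD2A (ENSG00000167491) was at 55.5 and 94.1 TPM in shPHF8 libraries, against 67.4 and 45.7 TPM in shControl libraries. The 4 values interleaved, and the log2 fold change of 0.38 ± 0.33 (SE) became 0.75 without shPHF8 replicate 1 and 0.00107 without shPHF8 replicate 2. GATAD2B averaged 28.0 ± 2.04 TPM in shPHF8 and 26.3 ± 0.0402 TPM in shControl libraries (SD, n = 2 each).

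In the INO80 and SRCAP group, RUVBL1 was lower and alone of 8 genes had an unadjusted limma p under 0.05. This is 12.5%, against 22.0% of all genes tested. RUVBL1 (ENSG00000175792) and RUVBL2 are AAA+ ATPases that form a ring shared by the INO80, SRCAP and TIP60 complexes. RUVBL1 was at 149 and 141 TPM in shPHF8 libraries, against 178 and 174 TPM in shControl libraries. The gap was wider than the spread within either group, with a log2 fold change of -0.28 ± 0.07 (SE) and a 95% confidence interval from -0.48 to -0.08 (limma, Benjamini-Hochberg adjusted p = 0.154). It ranged from -0.32 to -0.24 when 1 library was left out. Its ring partner RUVBL2 was at 165 and 161 TPM in shPHF8 libraries, against 194 and 161 TPM in shControl libraries, so only shControl replicate 1 stood apart, and its log2 fold change of -0.12 ± 0.11 (SE) became 0.02 without that library. The motor SRCAP averaged 72.2 TPM in shPHF8 and 71.1 TPM in shControl libraries, and the motor INO80 22.1 and 26.6 TPM. INO80B, a subunit of the INO80 complex, was at 13.9 and 25.7 TPM in shPHF8 libraries, against 27.2 and 25.1 TPM in shControl libraries, with shPHF8 replicate 1 alone low. Its log2 fold change of -0.44 ± 0.32 (SE) was -0.02 without that library. INO80C averaged 68.6 TPM in shPHF8 and 57.3 TPM in shControl libraries and INO80D 8.02 and 6.49 TPM, without overlap, while INO80E averaged 15.02 and 14.8 TPM.

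HELLS had the highest log2 fold change of the remodellers when all 4 libraries were fitted. HELLS (ENSG00000119969), a motor needed for DNA methylation of repeats, was at 35.8 and 48.9 TPM in shPHF8 libraries, against 25.6 and 19.0 TPM in shControl libraries. The groups did not overlap, but each spanned a wide range, with 42.3 ± 9.26 and 22.3 ± 4.65 TPM (SD, n = 2). The log2 fold change, 0.89 ± 0.23 (SE), had a 95% confidence interval from 0.25 to 1.53 (limma, Benjamini-Hochberg adjusted p = 0.152), and it ran from 0.67 without shPHF8 replicate 2 to 1.11 without shPHF8 replicate 1. Among the markers of dividing cells, TOP2A had a log2 fold change of 0.38 ± 0.11 (SE) and CCNB1 of 0.14 ± 0.06 (SE), both without overlap. MKI67, PCNA and MCM2 had 0.08, 0.05 and 0.06 and overlapped between the groups. The part of cell division in the HELLS values was not tested. ATRX, a motor that works with the chaperone DAXX to deposit a replacement histone at telomeres and repeats, was at 31.9 and 40.1 TPM in shPHF8 libraries, against 29.1 and 27.7 TPM in shControl libraries, whereas DAXX averaged 62.9 TPM in shPHF8 and 64.9 TPM in shControl libraries. SMARCAD1, a motor that acts at replication and repair sites, was at 78.6 and 79.6 TPM in shPHF8 libraries, against 83.7 and 82.9 TPM in shControl libraries. Its log2 fold change was -0.07 ± 0.08 (SE). SMARCAL1, which reanneals DNA at stalled forks, averaged 27.5 TPM in shPHF8 and 22.5 TPM in shControl libraries and overlapped.

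The shares of paralogues within their sets differed by at most 5.82 percentage points between the group means. Paralogues of a set need not replace each other in a complex, since RUVBL1 and RUVBL2 form a ring together. Shares of the summed TPM were computed in 13 sets and are given as a description, with no test. The smallest two-sided p that an exact permutation test could give here is 0.333. SMARCA4 made up 70.9% and 69.1% of the SMARCA4 and SMARCA2 sum in shPHF8 libraries, against 65.6% and 76.0% in shControl libraries. ARID1A made up 78.0% and 82.3% of its pair with ARID1B in shPHF8 libraries, against 80.9% and 79.1% in shControl libraries. The shPHF8 values of both pairs lay inside or close to the range of the shControl libraries. CHD4 made up 87.7% and 88.2% of its pair with CHD3 in shPHF8 libraries, against 87.0% and 86.4% in shControl libraries. MBD3 took 79.3% and 83.2% of its pair with MBD2 in shPHF8 libraries, against 83.3% and 81.6% in shControl libraries. In 7 of the 13 sets at least 1 share did not overlap. The widest of these were in the ISWI partners: BAZ1A held 31.4% and 31.7% of its pair with BAZ1B in shPHF8 libraries, against 27.4% and 25.5% in shControl libraries. BAZ2B held 30.2% and 26.6% of its pair with BAZ2A in shPHF8 libraries, against 25.8% and 19.4% in shControl libraries. SMARCD1 held 38.5% and 45.4% of its set with SMARCD2 and SMARCD3 in shPHF8 libraries, against 37.3% and 37.1% in shControl libraries. SMARCC1 held 74.1% and 73.3% of its pair with SMARCC2 in shPHF8 libraries, against 72.7% and 68.2% in shControl libraries. When the most abundant transcript alone stood for each gene, the difference in the SMARCA4 share turned from -0.81 to 5.63 percentage points, that of CHD4 from 1.21 to -4.54 and that of GATAD2A from 4.24 to -14.4, while that of BAZ1A, 5.12 percentage points, became 18.2. In that setting the shares of BAZ2B, SMARCD1 and SMARCC1 overlapped between the groups.

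**Figure D4:**
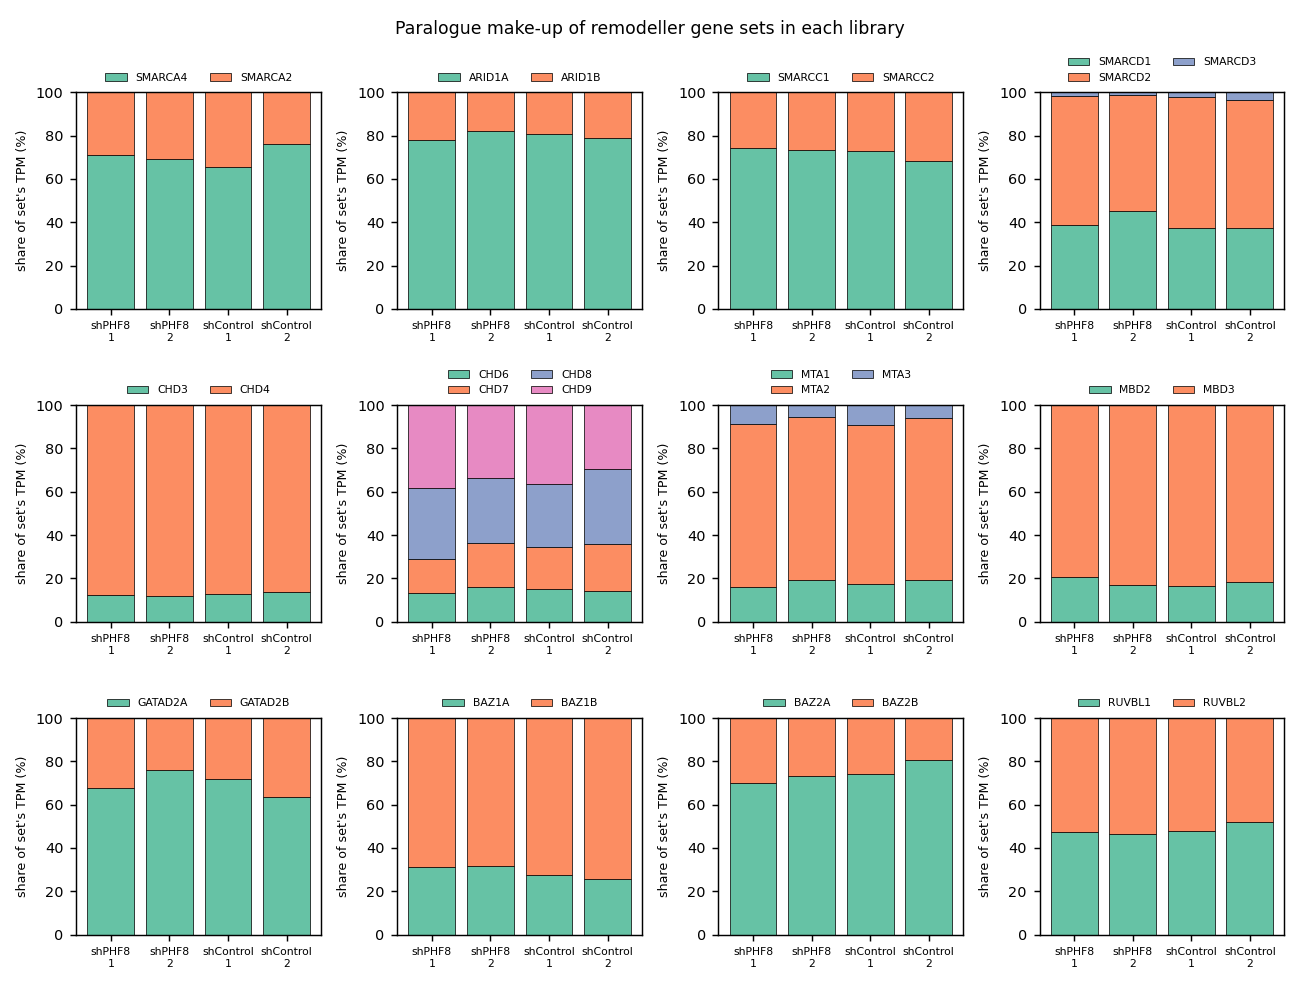
Share of each paralogue in the summed TPM of its set (y axis, percent) in each library, for 12 sets. The SMARCA5 and SMARCA1 pair is left out because SMARCA5 held at least 99.9% in every library. Most bars look alike in all 4 libraries, and BAZ1A and BAZ2B take a larger share in both shPHF8 libraries.

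The table lists 238 transcripts of the 56 genes, of which 49 genes have several and 7 have 1. Of these, 224 transcripts with a mean of at least 1 TPM were tested with all other transcripts. At a limma Benjamini-Hochberg adjusted p under 0.05, 1 of 30266 transcripts was called (0.00330%), and it was no remodeller transcript. At an unadjusted limma p under 0.05, 12 remodeller transcripts were higher (4.91% over all transcripts) and 8 lower (5.38%), together 8.93%, against 10.3% of all transcripts. Libraries did not overlap in 88 of them, 46 higher (21.0% over all transcripts) and 42 lower (22.2%), together 39.3%, against 43.2% of all transcripts. Single isoforms varied strongly within a group: of the 224, 66 were over 2-fold apart, after adding 1 TPM, between the 2 shPHF8 libraries and 65 between the 2 shControl libraries. Only 24 of the 49 genes with several transcripts had the same leading transcript in all 4 libraries. HELLS is an example, since HELLS-002 was at 0.0855 and 17.99 TPM and HELLS-203 at 0.0427 and 17.6 TPM in the 2 shPHF8 libraries.

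Isoforms of BAZ1A went opposite ways. BAZ1A-201 was at 65.1 and 58.6 TPM in shPHF8 libraries, against 14.1 and 17.7 TPM in shControl libraries, a log2 fold change of 1.90 ± 0.18 (SE; limma, Benjamini-Hochberg adjusted p = 0.152 over all transcripts). BAZ1A-001 was at 0.173 and 2.60 TPM in shPHF8 libraries, against 16.0 and 21.0 TPM in shControl libraries, a log2 fold change of -3.23 ± 0.67 (SE; limma, Benjamini-Hochberg adjusted p = 0.316). BAZ1A-201 thus made up 70.2% and 61.7% of BAZ1A in shPHF8 libraries, against 17.0% and 24.1% in shControl libraries, while the sum over the gene differed by 0.26 on the log2 scale. In GENCODE 29 these transcripts have the same coding exons, 1556 codons, and their 5′ ends lie 715 bases apart. They share 24 exons, of 27 in BAZ1A-201 and 26 in BAZ1A-001. BAZ1A-002, which has the 5′ end of BAZ1A-201 and 1524 codons, was at 1.11 and 11.9 TPM in shPHF8 libraries, against 20.8 and 16.8 TPM in shControl libraries.

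In SMARCB1 the higher sum lay mainly in SMARCB1-002. This transcript, with 376 codons in GENCODE 29, was at 61.1 and 74.7 TPM in shPHF8 libraries, against 14.3 and 39.7 TPM in shControl libraries. SMARCB1-003, with 147 codons, was listed at 0 in both shPHF8 libraries and at 15.7 and 12.4 TPM in shControl libraries. Its log2 fold change was -3.90, with the smallest adjusted p of the remodeller transcripts (limma, Benjamini-Hochberg adjusted p = 0.1155 over all transcripts). SMARCB1-005, with 394 codons, was at 1.58 and 0.461 TPM in shPHF8 libraries, against 5.84 and 5.62 TPM in shControl libraries, a log2 fold change of -1.79 ± 0.43 (SE; limma, Benjamini-Hochberg adjusted p = 0.357). SMARCB1-001 overlapped, with 28.8 and 16.2 TPM in shPHF8 and 23.0 and 8.18 TPM in shControl libraries. In SMARCA4 the leading transcript was the same in all 4 libraries: SMARCA4-001 was at 55.5 and 50.8 TPM in shPHF8 libraries, against 37.7 and 26.9 TPM in shControl libraries, and SMARCA4-202 at 19.6 and 19.0 TPM, against 13.1 and 14.1 TPM. RUVBL1 was nearly all RUVBL1-001, which was at 141 and 135 TPM in shPHF8 libraries, against 167 and 170 TPM in shControl libraries.

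Transcripts of other genes also had an unadjusted limma p under 0.05. GATAD2A-002 was at 10.5 and 35.1 TPM in shPHF8 libraries, against 1.96 and 0.507 TPM in shControl libraries (log2 fold change 3.27 ± 0.76, SE; limma, Benjamini-Hochberg adjusted p = 0.345). That value ran from 2.45 without shPHF8 replicate 2 to 4.10 without shPHF8 replicate 1. SMARCAL1-001 was at 10.0 and 13.3 TPM in shPHF8 libraries, against 2.20 and 3.34 TPM in shControl libraries (log2 fold change 1.753 ± 0.325, SE; limma, Benjamini-Hochberg adjusted p = 0.276). Both genes thus held a transcript that was higher in each shPHF8 library while the libraries overlapped in their sums. ARID4A-001, the full form of 1257 codons, was at 8.13 and 8.26 TPM in shPHF8 libraries, against 15.6 and 18.2 TPM in shControl libraries, whereas ARID4A-201, with 1188 codons, was at 5.80 and 2.92 TPM in shPHF8 libraries and listed at 0 in both shControl libraries. Minor INO80B transcripts went opposite ways: INO80B-010 was at 4.39 and 2.16 TPM in shPHF8 libraries and listed at 0 in both shControl libraries, and INO80B-006 was at 0 and 0.906 TPM in shPHF8 libraries, against 8.36 and 3.75 TPM in shControl libraries. INO80E-012 was at 2.54 and 2.28 TPM in shPHF8 libraries and listed at 0 in both shControl libraries.

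**Figure D5:**
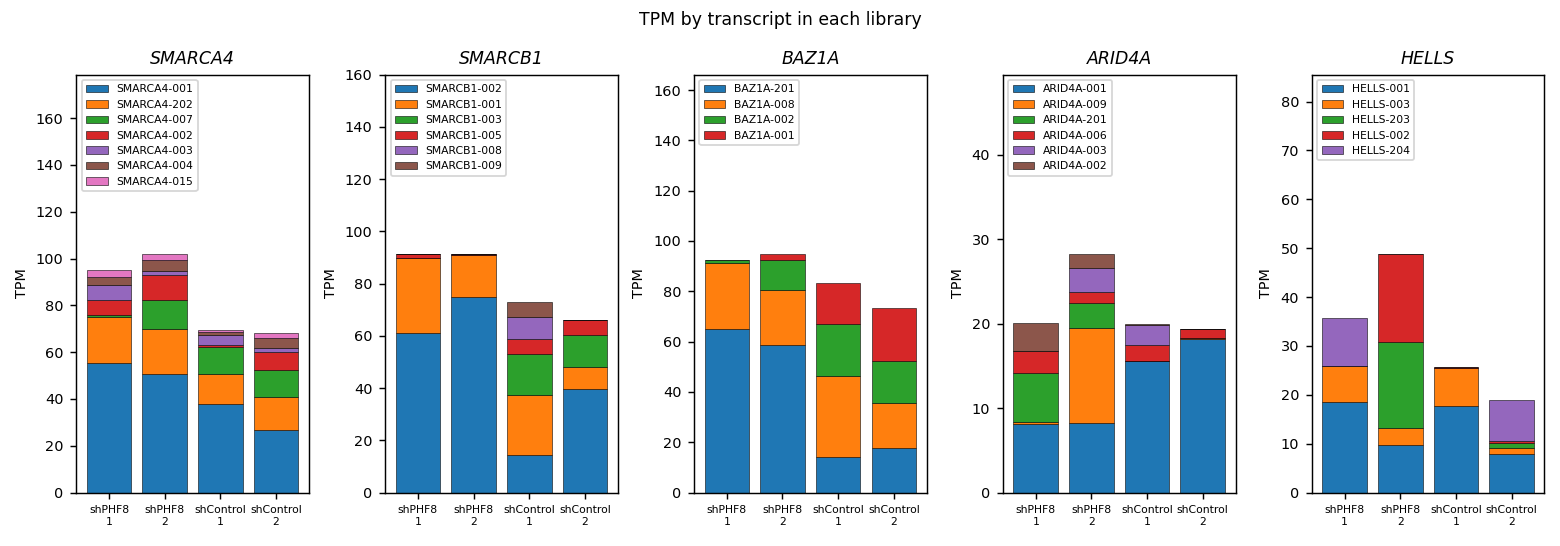
TPM by transcript (stacked, y axis from 0) in each library for SMARCA4, SMARCB1, BAZ1A, ARID4A and HELLS. BAZ1A-201 fills most of the bar in both shPHF8 libraries, SMARCB1-003 is seen in the shControl libraries only, and the make-up of HELLS differs between libraries of the same group.

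Further remodeller genes, which the naming rule leaves out, were taken as a second list. It holds subunits of the complexes above and also genes outside them, such as HLTF, BTAF1 and RAD54L. Of 55 names on this list 51 were tested; 4 were higher and 0 lower at an unadjusted limma p under 0.05, or 7.84%, against 22.0% of all genes (9.90% higher and 12.1% lower). The libraries of 25, or 49.0%, did not overlap, against 55.3% of all genes. Their median log2 fold change was 0.09. The 4 were CDCA7L, a relative of the HELLS partner CDCA7, at 22.8 and 18.7 TPM in shPHF8 libraries, against 11.4 and 8.71 TPM in shControl libraries; YEATS4, a histone reader of the SRCAP complex, at 129 and 133 against 106 and 94.0 TPM; and YY1 and UCHL5, both partners of the INO80 complex, with log2 fold changes of 0.41 ± 0.12 and 0.35 ± 0.11 (SE). Their limma Benjamini-Hochberg adjusted p ran from 0.120 to 0.188 over all genes. The SWI/SNF subunits on this list, PBRM1 and PHF10 among them, were not among the 4.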

How the data were processed

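RNA of 4 K562 libraries was measured. The authors deposited TPM per transcript, and each TPM column summed to 1000000 over 32551 transcripts, per the file headers and values. A further set of columns without a unit, described as signal in the deposited table, was proportional to TPM and gave no result. Per the submitters' processing notes HISAT2 2.0.4, StringTie 1.2.3 and hg19 were used; no source used here gives the annotation or strandedness, so antisense partners cannot be told apart. TPM were summed per gene name. The comparison used limma 3.58.1 in R 4.3.3 on log2(TPM + 1) for genes or transcripts with a mean of at least 1 TPM. Tests were two-sided, with Benjamini-Hochberg adjustment over all features tested at 0.05. The spread of each feature was moderated by empirical Bayes toward a mean-variance trend over all features. In the gene fit there were 2 residual and 2.16 prior degrees of freedom. The gene comparison was tested on simulated data. There, 24.8% of genes given a log2 change of 1 passed an adjusted p under 0.05, and 60.4% of those given 2. Of genes given no change, 0.0297% passed. A difference that did not pass can therefore still be real. Transcript models came from GENCODE 29, where all 238 transcripts were found by identifier without version. Named genes were PHF8, members with an unadjusted p under 0.05 and, per role, the most abundant member and the one with the largest change; the 12 transcripts with the smallest p were named, and the 2 genes with the smallest p of the further list. Further genes and transcripts appear so that every member is accounted for, or because a count was small, and these were picked with their values known. Members and lists were chosen with earlier results of these data known. Tables and figures used Python 3.11.15, pandas 2.3.3 and matplotlib 3.10.9.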

Additional observations from a re-analysis of the deposited data

How the results depend on the processing

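The main values were compared under 12 alternatives. The number of genes called over all genes by limma with Benjamini-Hochberg adjustment was 0 in each but quantile normalization, where it was 37 with no named remodeller gene among them. The 5 higher and 2 lower remodeller genes at an unadjusted p under 0.05 became 2 to 7 higher and 1 to 3 lower when 1 library was left out, and 1 lower without the trend. The replicate numbers do not pair the libraries by the labels, and deviations of same-numbered libraries had a correlation of -0.03 across 10972 genes; with the replicate block 1 gene was lower and 6 were higher. The median log2 fold change of the remodellers ran from 0.06 to 0.11. The 20 transcripts at an unadjusted p under 0.05 became 13 with a minimum mean of 5 TPM and 20 to 28 when 1 library was left out. Among 366 values of single genes and transcripts 4 changed sign, all on leaving out 1 library, with ranges of -0.08934 to 0.14 for CHD4 (which was also -0.01256 without shPHF8 replicate 1), -0.81 to 0.08691 for ARID4B and -0.25 to 0.01718 for RUVBL2; the cause was not tested. Of 30 differences in paralogue share, 10 moved by more than the spread between replicates when the most abundant transcript stood for its gene. With 2 libraries a group and unknown depth, precision rests on the spread between libraries, both of the gene itself and, through the moderation, of the other genes.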
